A study of Mus musculus and Homo sapiens with 18 samples.

Results

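A set of 10 genes of the NF-kB system was followed through mouse bladder carcinoma libraries. They were the 4 subunit genes Nfkb1, Nfkb2, Rela and Relb, the inhibitor genes Nfkbia and Tnfaip3, the regulators Nfkbiz and Birc3, and the adhesion receptor genes Icam1 and Vcam1. They were picked by symbol out of 55858 mouse genes, each symbol led to 1 gene identifier, and all 10 passed the filter on low counts in both comparisons. The 12 mouse libraries formed 4 groups of 3. Relapsed tumours came from a genetically engineered mouse model (GEMM) given chemotherapy with cisplatin and gemcitabine, and the control tumours of the same model stood against them. The sgIgfbp5 libraries carried a guide RNA for Igfbp5 in CUUC-G cells, a mouse bladder cancer line labelled as GEMM, and sgScr was the control guide. Age, strain and the engineered alleles are not given in the labels, nor is whether replicates came from separate animals or cultures, or whether CUUC-G was used as 1 clone. The p-values therefore measure only the spread between these libraries, which may be technical. Columns marked mI in the CUUC-G table were taken as the sgIgfbp5 libraries, because the labels use hI for the IGFBP5-targeted human line. The table does not spell this out.

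NF-kB is a family of dimeric transcription factors that wait in the cytoplasm bound to inhibitors of the IkB family. In the canonical pathway, signals from cytokine and Toll-like receptors activate the IKK kinases, which mark IkB-alpha for destruction and free dimers of RelA and p50 to enter the nucleus. In the non-canonical pathway the kinase NIK leads to processing of p100 into p52, the partner of RelB. Many of the genes that NF-kB switches on encode its own brakes, and in epithelial and stromal cells others encode chemokines and adhesion receptors for leukocytes.

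The promoters of 4 of these genes are shown because they hold matches to the letters NF-kB binds. RefSeq promoter windows on GRCm38.p6, running from 250 bases before to 50 bases after a transcription start, were found for 6 of the 10 genes (Birc3, Icam1, Nfkb2, Nfkbia, Rela and Tnfaip3; 9 windows). Capitals mark matches on either strand to the NF-kB consensus decamer or to the 9 letters GGAAATTCC, and matches may overlap. The first gene encodes IkB-alpha, the second A20, the third p100 and the fourth the adhesion receptor ICAM-1.
Nfkbia, chr12:55492598-55492897, minus strand: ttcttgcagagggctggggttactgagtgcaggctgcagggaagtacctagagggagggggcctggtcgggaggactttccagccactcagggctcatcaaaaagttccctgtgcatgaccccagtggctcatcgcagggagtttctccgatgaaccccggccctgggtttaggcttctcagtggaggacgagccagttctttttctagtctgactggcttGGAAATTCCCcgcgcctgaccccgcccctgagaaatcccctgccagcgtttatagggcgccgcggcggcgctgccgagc
Tnfaip3, chr10:19015361-19015660, minus strand: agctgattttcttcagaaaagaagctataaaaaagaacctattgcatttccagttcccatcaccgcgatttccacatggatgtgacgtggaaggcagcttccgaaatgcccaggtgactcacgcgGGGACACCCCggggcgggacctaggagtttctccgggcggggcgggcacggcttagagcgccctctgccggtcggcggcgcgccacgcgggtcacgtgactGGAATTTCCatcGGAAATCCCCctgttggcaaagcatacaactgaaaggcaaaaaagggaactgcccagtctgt
Nfkb2, chr19:46304487-46304786, plus strand: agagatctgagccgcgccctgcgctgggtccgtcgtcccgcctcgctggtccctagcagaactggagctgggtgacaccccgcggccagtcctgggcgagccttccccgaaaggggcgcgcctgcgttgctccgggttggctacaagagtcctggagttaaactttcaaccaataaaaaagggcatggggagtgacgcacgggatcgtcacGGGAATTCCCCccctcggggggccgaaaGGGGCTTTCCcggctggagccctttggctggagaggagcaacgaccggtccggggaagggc
Icam1, chr9:21015690-21015989, plus strand: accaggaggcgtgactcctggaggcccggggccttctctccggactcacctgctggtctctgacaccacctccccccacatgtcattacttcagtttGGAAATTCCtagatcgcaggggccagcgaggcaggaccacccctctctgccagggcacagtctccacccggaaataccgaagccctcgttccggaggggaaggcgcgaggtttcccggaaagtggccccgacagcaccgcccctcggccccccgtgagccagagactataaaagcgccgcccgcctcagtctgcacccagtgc

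The 9 letters GGAAATTCC stood in 1 window each of Icam1, Nfkbia and Tnfaip3, and in 0.317% of all 32851 RefSeq windows. Counted from the RefSeq start of each window, they lay at bases -29 to -21 in Nfkbia, -24 to -16 in Tnfaip3 and -153 to -145 in Icam1. The gene interval of Tnfaip3 given below reaches to base 19015657, near the upstream end of its window. Counted from that end of the gene, the Tnfaip3 match lies inside the gene. The consensus decamer matched in 5 of the 9 windows, those of Nfkb2, Nfkbia and Tnfaip3, against 8.46% of all windows. By gene it matched in 3 of the 6, against 9.55% of all genes with a window. The other 2 windows of Nfkb2, not printed, overlap each other and share a match. The windows of Rela and Birc3 and the second window of Tnfaip3 held no match to either. The letters TATAAA, also searched on both strands and left in lower case, stood in 3 of the 9 windows and in 13.6% of all windows. A match describes the sequence and is no evidence that a factor was bound there.

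Before the genes themselves, 3 facts about the libraries bear on every value that follows. The libraries held between 18964942 and 21757109 estimated counts. The relapsed tumours and the sgScr cells were nearly alike, with a correlation of 0.987 between mean log2 CPM (counts scaled to a common library total) over 14018 genes and only 1.85% of genes differing at least 2-fold, while any other pair of groups differed that much in at least 25.9% of genes. Y-linked transcripts were abundant in the control tumours and at or near 0 elsewhere. Ddx3y had 0 counts in the relapsed, sgIgfbp5 and sgScr libraries and 69.8 to 77.7 CPM in the control tumours. Xist averaged 483 CPM in the relapsed and 0.0845 CPM in the control tumours, and 1426 CPM with sgIgfbp5 and 411 CPM with sgScr. The source of the cells and the treatment cannot be told apart in the tumour comparison. The sgIgfbp5 and sgScr groups differed at least 2-fold in 33.4% of genes, with a correlation of 0.851. The sgIgfbp5 cells lay nearer to the control tumours, with 26.6% of genes differing that much and a correlation of 0.890. Whether the sgIgfbp5 and sgScr cells differ in more than the guide was not tested. All 10 genes lie on autosomes.

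The targeted gene Igfbp5, which encodes a secreted binding protein of insulin-like growth factors, is only a weak check of the CUUC-G labels. With sgIgfbp5 34.3% of all genes tested were called lower, and 16.8% were at least 2-fold lower. Igfbp5 had 12, 8 and 10 counts in the sgIgfbp5 libraries, against 20, 51 and 43 in the sgScr libraries. The fold change was 3.996-fold lower, with a log2 SE of 0.42 (n = 3 per group; edgeR adjusted p = 0.00125). The labels call these cells a knockdown and the design text a knockout, and a level of RNA does not show which. In the tumours Igfbp5 had 36, 64 and 49 counts at relapse, against 4, 17 and 6 in the controls. That is a log2 fold change of 2.44 ± 0.44 (n = 3 per group; edgeR adjusted p = 1.97e-05), and of 3.32 without control replicate 2.

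Markers of other cell types were read because Icam1 and Vcam1 are also made by endothelium and leukocytes. Summed over 12 leukocyte markers, the level lay between 5.29 and 6.13 CPM in the relapsed and between 19.4 and 21.02 CPM in the control tumours, where Cd74 alone gave 17.8 CPM. In CUUC-G the sum was 19.9 to 23.5 CPM with sgIgfbp5 and 5.22 to 5.72 CPM with sgScr. Of those 12 markers, 3 passed the filter in each comparison (2 higher and 1 lower at relapse, 1 higher and 2 lower with sgIgfbp5), and Cd3e and Cd3g, which define T cells, had 0 counts in all 4 groups. The 10 endothelial markers summed to 152 to 165 CPM in the relapsed and to 6.57 to 7.24 CPM in the control tumours, and to 12.5 to 14.3 CPM with sgIgfbp5 and 152 to 159 CPM with sgScr. Kdr supplied 156 CPM of the relapsed sum, while Robo4 and Tie1 had 0 counts in all groups, and Cdh5 had 0 in the control and sgIgfbp5 libraries. At relapse 1 of 3 tested endothelial markers was higher and 2 were lower; with sgIgfbp5 1 of 2 was higher and 1 lower.

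Epithelial markers, which a bladder carcinoma label implies, differed widely between the groups. Summed over 15 urothelial and epithelial markers, levels were 623 to 650 CPM in the relapsed and 31.7 to 38.5 CPM in the control tumours, and 154 to 181 CPM with sgIgfbp5 and 669 to 754 CPM with sgScr. Krt5 and Upk3a had 0 counts in every group. At relapse 6 of 10 tested markers were higher and 1 lower; with sgIgfbp5 3 of 10 were higher and 6 lower. The 9 fibroblast markers summed to 8574 to 8740 CPM in the relapsed and 18770 to 19370 CPM in the control tumours, and to 4812 to 5431 CPM with sgIgfbp5 and 9089 to 9584 CPM with sgScr, led by Col1a1. Of these, 4 were higher and 5 lower at relapse, and 2 were higher and 5 lower of 7 tested with sgIgfbp5. The 7 smooth muscle markers summed to 1366 to 1388 CPM in the relapsed and 2453 to 2568 CPM in the control tumours, and to 200 to 231 CPM with sgIgfbp5 and 1407 to 1591 CPM with sgScr. At relapse 1 of them was higher and 5 were lower, and with sgIgfbp5 all 7 were lower. The part of these differences in the values below was not tested, and in bulk RNA fewer cells of a type and less RNA per cell cannot be told apart.

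The first comparison set relapsed against control tumours. The 2 adhesion receptor genes, Nfkbia, Nfkbiz and Tnfaip3 were higher at relapse, by 1.97-fold to 16.2-fold, while the 4 subunit genes differed by at most 1.34-fold. Of the 10 genes 7 were higher, 2 were lower and Rela did not pass an edgeR adjusted p of 0.05. Over all 14373 genes tested, 73.5% were called in either direction, 36.6% of them higher and 36.9% lower as shares of the tested genes, so a count of 9 called genes of 10 lies near the background. A called difference of at least 2-fold in either direction was found in 4 of the 10 genes and 25.2% of all genes. Higher by that much were the same 4 (Icam1, Nfkbiz, Nfkbia and Vcam1), and 13.2% of all genes. None of the 10 was at least 2-fold lower, against 12% of all genes. The median log2 fold change was 0.67 over the 10 genes and 0.00 over all genes. The groups did not overlap for 8 of the 10 genes and for 75.3% of all genes.

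Among the subunits, Nfkb1 (ENSMUSG00000028163.18; GRCm38 chromosome 3, 135584655 to 135691547, minus strand) encodes p105, the precursor of p50. It had 76.1, 84.5 and 78.6 CPM in the relapsed tumours, against 65.7, 65.0 and 64.7 CPM in the control tumours. Every relapsed library was above every control library, and the log2 fold change was 0.29 ± 0.05 (SE, n = 3 per group; edgeR adjusted p = 1.5e-05). Nfkb2 (ENSMUSG00000025225.16; chromosome 19, 46304320 to 46312385, plus strand) encodes p100, the precursor of p52. It had 104, 105 and 109 CPM in the relapsed and 86.2, 81.3 and 81.1 CPM in the control tumours, again without overlap, a log2 fold change of 0.36 ± 0.05 (adjusted p = 7.63e-08 by edgeR).

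Rela (ENSMUSG00000024927.9; chromosome 19, 5637483 to 5648130, plus strand), which encodes the transactivating subunit p65, had 182, 183 and 189 CPM in the relapsed tumours and 205, 191 and 186 CPM in the control tumours. The groups overlapped, and the log2 fold change of -0.07 ± 0.04 did not pass (edgeR adjusted p = 0.102). The call depended on the scale. On log2(TPM + 1), where TPM is transcript abundance scaled within a library and corrects for transcript length, limma gave -0.30 and an adjusted p of 0.000767, and without control replicate 3 edgeR gave -0.11 with an adjusted p of 0.0346. Part of the TPM difference lay on Rela-203, a retained-intron transcript of 786 bases, at 1.15 TPM in the relapsed and 10.6 TPM in the control tumours. The coding transcript Rela-201 had 102.9 and 117 TPM. Relb (ENSMUSG00000002983.18; chromosome 7, 19606217 to 19629438, minus strand), the subunit of the non-canonical pathway, had 30.5, 28.3 and 27.8 CPM in the relapsed and 37.2, 37.7 and 40.9 CPM in the control tumours. It was lower in every relapsed library, by -0.42 ± 0.07 on the log2 scale (edgeR adjusted p = 8.67e-06).

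The inhibitor genes were higher at relapse. Nfkbia (ENSMUSG00000021025.9; chromosome 12, 55489410 to 55492647, minus strand) encodes IkB-alpha, which holds RelA dimers in the cytoplasm and is itself a rapid NF-kB target. It had 84.8, 82.0 and 84.0 CPM in the relapsed tumours, against 18.9, 19.7 and 17.9 CPM in the control tumours. The groups were far apart, 4.45-fold, and the log2 fold change was 2.15 ± 0.06 (SE, n = 3 per group; edgeR adjusted p = 1.84e-21). Tnfaip3 (ENSMUSG00000019850.12; chromosome 10, 19000910 to 19015657, minus strand) encodes A20, a ubiquitin-editing enzyme that shuts off signalling upstream of IKK. It had 31.1, 31.1 and 30.3 CPM in the relapsed and 15.9, 16.0 and 14.9 CPM in the control tumours, a log2 fold change of 0.98 ± 0.08 (edgeR adjusted p = 1.64e-11).

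The 2 regulators went separate ways. Nfkbiz (ENSMUSG00000035356.18; chromosome 16, 55811375 to 55838899, minus strand) encodes IkB-zeta, a nuclear IkB protein that helps p50 to switch on secondary inflammatory genes. It had 111, 112 and 117 CPM in the relapsed and 17.3, 19.4 and 18 CPM in the control tumours. All relapsed libraries lay above all controls, 6.21-fold, with a log2 fold change of 2.63 ± 0.06 (edgeR adjusted p = 4.27e-24). Birc3 (ENSMUSG00000032000.18; chromosome 9, 7848699 to 7873186, minus strand) encodes cIAP2, a ubiquitin ligase that restrains NIK and protects cells from death after TNF. It had 12.7, 8.22 and 8.38 CPM in the relapsed and 11.5, 11.9 and 13.4 CPM in the control tumours. Relapsed replicate 1 lay inside the control range, and the log2 fold change of -0.33 ± 0.14 passed narrowly (edgeR adjusted p = 0.0441). The call was lost with DESeq2 (adjusted p = 0.122), on log2(TPM + 1) (limma adjusted p = 0.334), and without relapsed replicate 2 or 3 or control replicate 2 or 3, where the edgeR adjusted p lay between 0.0619 and 0.227. Without relapsed replicate 2 the log2 fold change was -0.21, and without relapsed replicate 1 it was -0.56 (edgeR adjusted p = 0.000973).

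Both adhesion receptors were higher at relapse. Icam1 (ENSMUSG00000037405.9; chromosome 9, 21015985 to 21028817, plus strand) encodes the ligand of the leukocyte integrins LFA-1 and Mac-1. It had 34.2, 30.6 and 32.4 CPM in the relapsed tumours, against 1.64, 2.31 and 2.06 CPM in the control tumours. These levels rest on 1962 and 121 counts over the relapsed and the control libraries. The groups were 16.2-fold apart, and the log2 fold change was 4.02 ± 0.13 (SE, n = 3 per group; edgeR adjusted p = 5.27e-21), which was higher than that of 98.1% of all genes tested. Vcam1 (ENSMUSG00000027962.15; chromosome 3, 116109949 to 116129688, minus strand) encodes the ligand of the integrin of alpha4 and beta1 chains. It had 174, 187 and 170 CPM in the relapsed and 44.6, 41.9 and 42.5 CPM in the control tumours, a log2 fold change of 2.04 ± 0.05 (edgeR adjusted p = 8.42e-24).

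**Figure D1:**
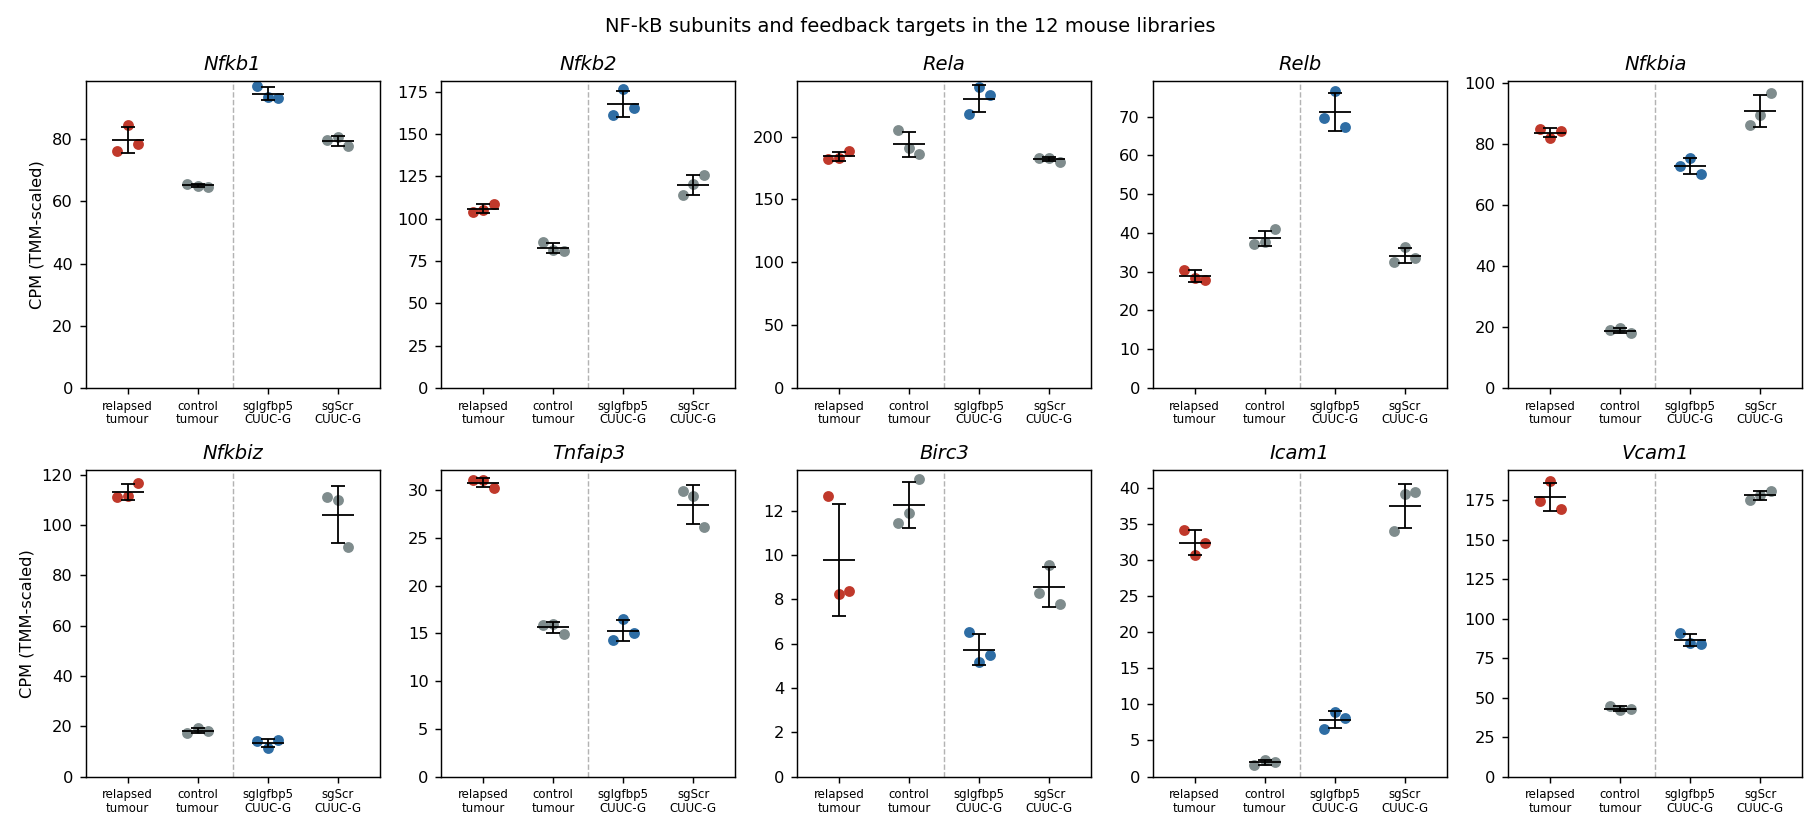
Each point is 1 library, each horizontal line the group mean with its SD (n = 3), and the y axis gives TMM-scaled CPM from 0; the dashed line separates the 2 tables, which were scaled apart. Nfkbia, Nfkbiz, Tnfaip3, Icam1 and Vcam1 stand high in relapsed tumours and sgScr cells and lower in the control tumours and sgIgfbp5 cells, while the subunits change little at relapse and stand highest with sgIgfbp5.

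The second comparison asked how the same genes differed in CUUC-G when Igfbp5 was targeted. All 4 subunit genes were higher with sgIgfbp5, and all 6 other genes were lower. Over 14553 genes tested, 70.8% were called, with 36.5% higher and 34.3% lower as shares of the tested genes, so that 10 called genes of 10 again says little beside the background. A called difference of at least 2-fold was found in 4 of the 10 genes and 31.3% of all genes. At least 2-fold lower were Nfkbiz, Icam1 and Vcam1, 3 of the 10 genes, and 16.8% of all genes. At least 2-fold higher was 1 gene, Relb, and 14.6% of all genes. The median log2 fold change was -0.45 over the 10 genes and 0.06 over all genes. The groups did not overlap for any of the 10 genes, nor for 73.9% of all genes.

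Relb moved most among the subunits. It had 69.6, 76.7 and 67.2 CPM in the sgIgfbp5 libraries, against 32.5, 36.3 and 33.5 CPM in the sgScr libraries, and all sgIgfbp5 libraries were above every sgScr library. The log2 fold change was 1.06 ± 0.08 (SE, n = 3 per group; edgeR adjusted p = 6.19e-07). Nfkb2, whose product p52 pairs with RelB, had 162, 177 and 166 CPM with sgIgfbp5 and 114, 120 and 126 CPM with sgScr, a log2 fold change of 0.49 ± 0.07 (edgeR adjusted p = 9.15e-05). The smaller differences were those of the canonical pair. Rela had 218, 239 and 233 CPM with sgIgfbp5, against 183, 183 and 180 CPM with sgScr, a log2 fold change of 0.34 ± 0.07 (edgeR adjusted p = 0.000692). Nfkb1 had 97.1, 93.4 and 93.4 CPM with sgIgfbp5 and 79.8, 80.7 and 77.8 CPM with sgScr, a log2 fold change of 0.25 ± 0.07 (edgeR adjusted p = 0.00616). Without sgIgfbp5 replicate 3 the adjusted p of Nfkb1 was 0.0561.

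The inhibitors and regulators were lower to unequal degrees. Nfkbia had 72.8, 75.3 and 70.0 CPM with sgIgfbp5 and 86.1, 89.6 and 96.6 CPM with sgScr, a log2 fold change of -0.32 ± 0.08 (SE, n = 3 per group; edgeR adjusted p = 0.00273). Nfkbiz had 14.1, 11.5 and 14.5 CPM with sgIgfbp5, against 111, 110 and 91.2 CPM with sgScr. That was 7.79-fold lower, with a log2 fold change of -2.96 ± 0.12 (edgeR adjusted p = 2.05e-09), the largest difference of the 10 genes in the CUUC-G comparison. Tnfaip3 had 14.3, 16.5 and 15.03 CPM with sgIgfbp5 and 30.0, 29.4 and 26.2 CPM with sgScr, a log2 fold change of -0.90 ± 0.10 (edgeR adjusted p = 1.03e-05). Birc3 was low in all 6 libraries, with 6.51, 5.16 and 5.50 CPM with sgIgfbp5 and 8.29, 9.53 and 7.80 CPM with sgScr. Its log2 fold change of -0.58 ± 0.15 passed with edgeR (adjusted p = 0.00554), but limma on log2(TPM + 1) gave -0.10 and an adjusted p of 0.772.

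The adhesion receptors were lower with sgIgfbp5 in every library. Icam1 had 6.61, 8.95 and 8.08 CPM with sgIgfbp5, against 34.0, 39.1 and 39.4 CPM with sgScr, a 4.75-fold difference and a log2 fold change of -2.25 ± 0.12 (edgeR adjusted p = 3.07e-08). Vcam1 had 90.7, 84.7 and 83.8 CPM with sgIgfbp5 and 175, 178 and 181 CPM with sgScr, a log2 fold change of -1.04 ± 0.07 (edgeR adjusted p = 1.15e-07).

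**Figure D2:**
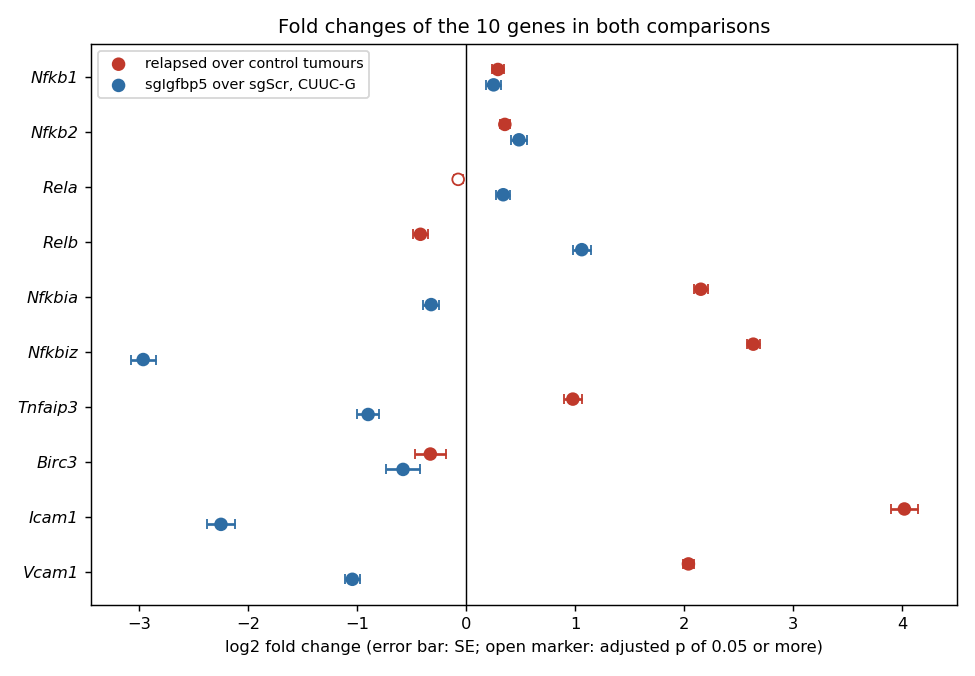
The x axis gives the log2 fold change of each gene with its standard error, in red for relapsed over control tumours and in blue for sgIgfbp5 over sgScr; open markers did not pass an edgeR adjusted p of 0.05. Nfkbiz lies at 2.63 and -2.96 and Icam1 at 4.02 and -2.25, on opposite sides of 0, whereas Nfkb1 and Nfkb2 lie right of 0 in both.

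Side by side, 5 genes were higher at relapse and lower with sgIgfbp5 (Nfkbia, Nfkbiz, Tnfaip3, Icam1 and Vcam1), as were 24.7% of the 13904 genes tested in both comparisons. Relb was lower at relapse and higher with sgIgfbp5, as were 23% of genes. Nfkb1 and Nfkb2 were higher in both, a pair of directions seen in 4.49% of genes, and Birc3 was lower in both, as were 5.02%. The comparisons share no library, but the relapsed and the sgScr libraries were nearly alike, so these pairs of directions are not separate observations.

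Levels per transcript length, in TPM, allow the genes to be ranked against one another. In relapsed tumours Nfkbia was the highest of the 10 at 142 ± 4.97 TPM (SD, n = 3). Rela followed at 108.5 ± 2.42 and Vcam1 at 82.7 ± 4.02, and Tnfaip3 was lowest at 10.4 ± 0.532. Short transcripts shape these ranks. Of the Nfkbia level 73.9 TPM lay on Nfkbia-202, a retained-intron transcript of 701 bases. The coding transcript Nfkbia-201 had 67.8 TPM, below Rela-201 at 102.9 and Vcam1-201 at 70.2. Birc3 stood next above Tnfaip3 at 12.2 TPM. Of that, 4.29 TPM lay on Birc3-206, of 360 bases and 5 counts on average, and 5.06 TPM on its main transcript Birc3-201. The CUUC-G values, given by gene, cannot be split this way. In control tumours Rela led at 134 ± 5.55 TPM, Nfkbia stood at 33.7 ± 2.12 and Icam1 was lowest at 1.37 ± 0.251. With sgIgfbp5 Rela led at 141 ± 11.96 TPM and Icam1 was again lowest at 4.69 ± 0.719. With sgScr the order began as in relapsed tumours, with Nfkbia at 124 ± 5.36, Rela at 102 ± 9.31 and Vcam1 at 82.9 ± 2.13 TPM.

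Across the 4 groups the order of TPM levels differed by gene. Icam1 and Vcam1 were highest in the sgScr and relapsed libraries, which overlapped, then in sgIgfbp5 and lowest in the control tumours, with no overlap at the last 2 steps. Nfkbia ran from relapsed tumours through sgScr and sgIgfbp5 to the control tumours with no overlap between neighbours. Its 92.2 ± 6.83 TPM with sgIgfbp5 compared with 33.7 ± 2.12 TPM in the control tumours. For Nfkbiz and Tnfaip3 the relapsed and sgScr libraries overlapped at the top, and sgIgfbp5 was lowest, at 5.80 ± 0.658 and 5.04 ± 0.378 TPM (SD, n = 3). Relb was highest with sgIgfbp5 at 49.4 ± 2.40 TPM, then in the control tumours at 31.7 ± 1.93, and its sgScr and relapsed values overlapped at 23.4 ± 0.880 and 21.7 ± 0.825. Neighbouring groups of Birc3 overlapped at each step from 14.7 ± 2.81 TPM in the control tumours to 6.31 ± 1.89 TPM with sgIgfbp5. These orders set values from separately processed tables beside each other and carry no test.

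The tumour table also splits each gene into transcripts. Protein-coding transcripts took 71.3% to 77.6% of the estimated counts of Nfkbia in the relapsed and 76.3% to 77.6% in the control tumours, and the rest lay on 1 retained-intron transcript, Nfkbia-202. That share of 25.8% ± 3.18 in relapsed and 23.1% ± 0.643 in control tumours (SD, n = 3) overlapped between the groups, although the gene's level differed 4.45-fold. For Relb retained-intron transcripts took 1.33%, 2.52% and 0.808% in the relapsed and 5.38%, 5.19% and 4.85% in the control tumours, which did not overlap. The relapsed shares rest on few counts, with means of 3.6 for Relb-208 and 5.4 for Relb-206. Which transcript held the share also differed between libraries of a group. Nfkb2 was carried mainly by Nfkb2-201, with 62.5%, 69.1% and 62.1% in the relapsed and 45.3%, 55.7% and 42.4% in the control tumours, and by Nfkb2-202. The shares of Nfkb2-201 did not overlap between the groups. How often transcript shares of other genes fail to overlap was not counted. The main transcript Nfkb1-201 took 74.7% to 80.4% of Nfkb1 in the relapsed and 83.4% to 92.2% in the control tumours.

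Vcam1-201 took 91.0%, 89.1% and 91.9% of Vcam1 at relapse and 84.4%, 86.7% and 88.3% in the control tumours. Nfkbiz-204 took 95.2% to 97.9% of Nfkbiz in the relapsed and 74.6% to 91.4% in the control tumours. Some splits changed completely between libraries of 1 group. Relb-202 took 0%, 0% and 78.0% in the relapsed tumours and 0%, 0% and 74.95% in the control tumours, and Relb-203 took 0% in those same replicates 3 and 78.9% to 85.4% in the other 4 libraries. Tnfaip3-202 took 91.2% in relapsed replicate 3 and 0% in the other 5 tumour libraries, where Tnfaip3-201 took 90.8% to 99.0%. Relb-202 and Relb-203 differ by few bases in length, at 2209 and 2203. Such shares are estimates with no error of their own in the table and were not tested, while the gene totals used above sum over them.

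**Figure D3:**
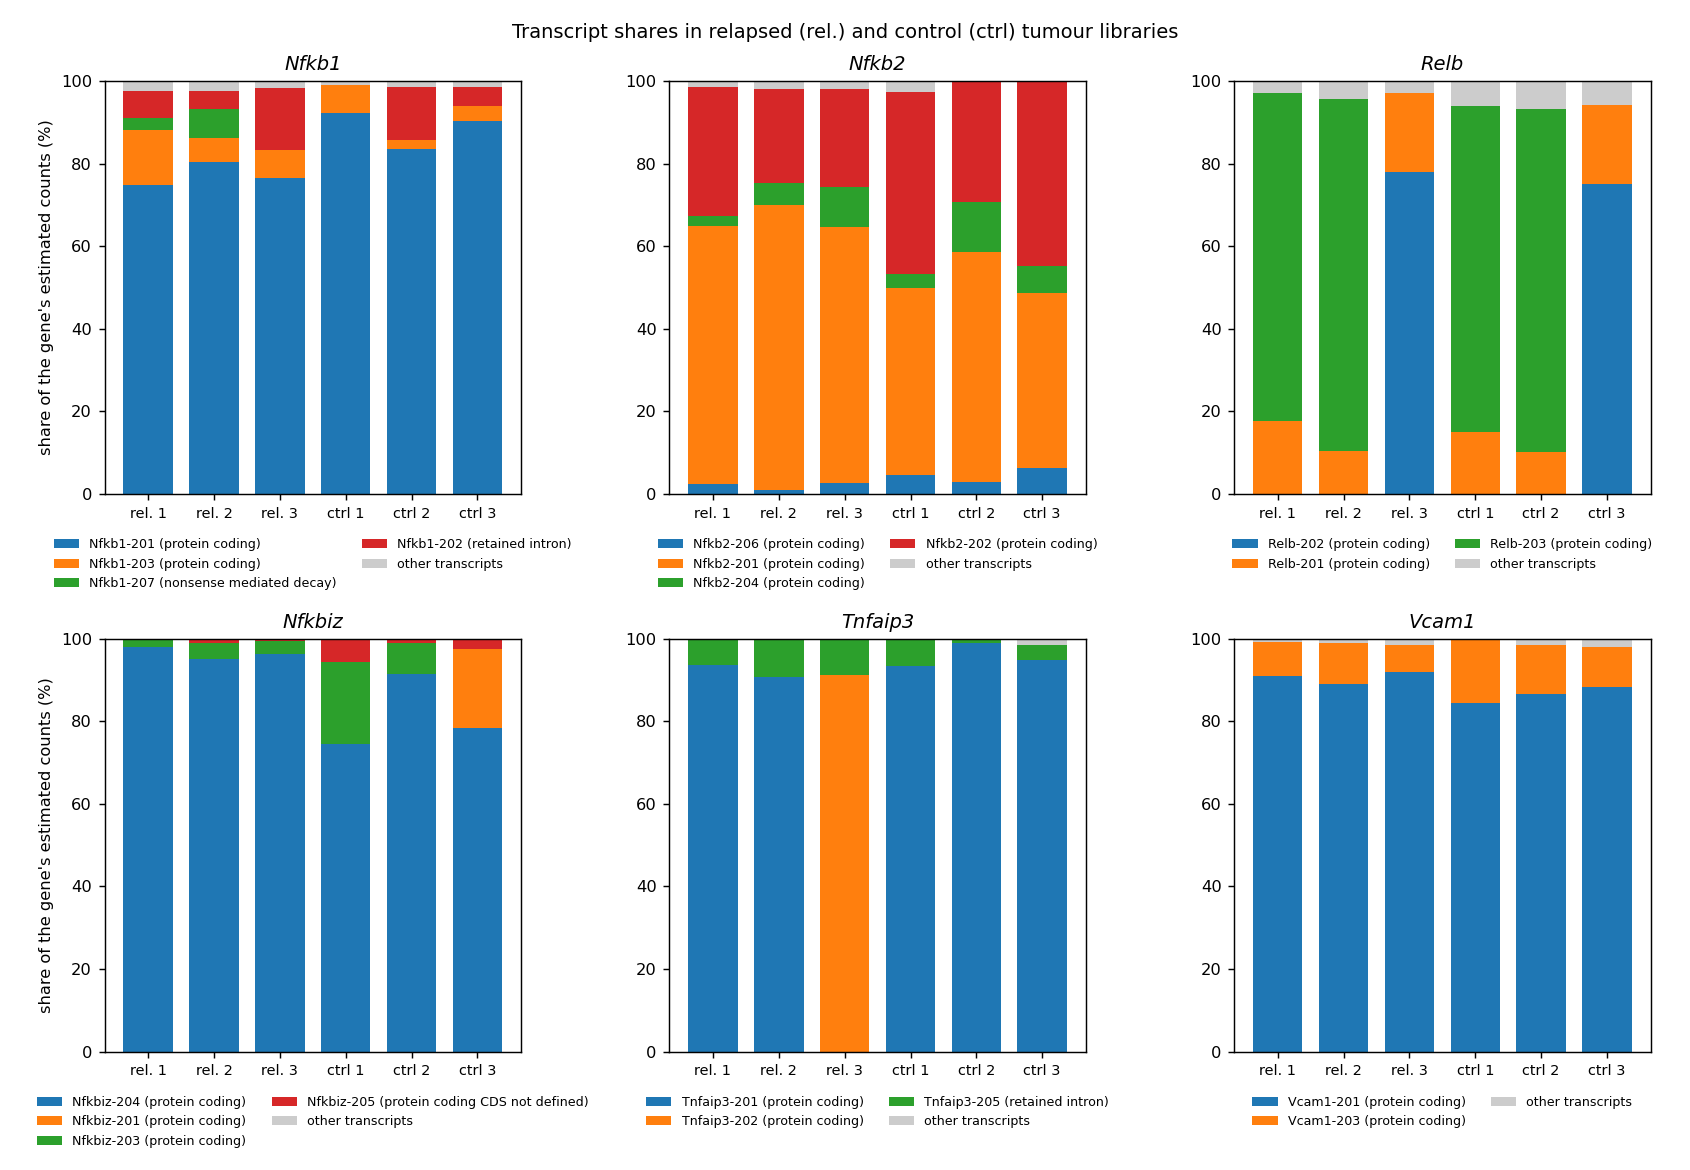
Bars give the percent of a gene's estimated counts on each transcript in the 3 relapsed and the 3 control tumour libraries, for transcripts that reach 5% in any library. The colour of Relb changes in replicate 3 of both groups and that of Tnfaip3 in relapsed replicate 3, while Nfkb2-201 stands higher in the relapsed libraries.

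Other genes of the pathway were read from 7 lists of 86 genes in all. At relapse 32 of 70 tested were higher and 24 lower, with a median log2 fold change of 0.20, and with sgIgfbp5 20 of 69 were higher and 35 lower, with a median of -0.36. Over all genes 36.6% were higher and 36.9% lower at relapse, and 36.5% higher and 34.3% lower with sgIgfbp5. The counts at relapse lie fairly near those shares, and the counts of the single lists below are to be read against the same shares. Ligand genes differed in level. Tnfsf12, which encodes the TNF-family ligand TWEAK, averaged 10.9 CPM in the relapsed and 9.003 CPM in the control tumours, and 11.4 CPM with sgIgfbp5 and 13.1 CPM with sgScr, and was called in neither comparison. Tnf, a main activator of the canonical pathway, had 10 counts over the relapsed and 0 over the control libraries, and Il1b had 0 in both. With sgIgfbp5 the counts were 0 for Tnf and 2 for Il1b, and with sgScr 5 for Tnf and 0 for Il1b. Of 10 ligand genes 4 were tested, of which 3 were higher at relapse and 3 lower with sgIgfbp5. Il1a, which encodes interleukin-1 alpha, had 607 counts over the relapsed and 3 over the control libraries, a ratio of 200.4 (95% interval 68.3 to 975, exact binomial, counting error only). With sgIgfbp5 it averaged 0.0662 CPM, against 8.94 CPM with sgScr, a log2 fold change of -6.97 ± 0.40 (edgeR adjusted p = 3.96e-08).

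Receptors were higher for 8 of 11 tested at relapse and lower for 2, with a median log2 fold change of 0.56, and with sgIgfbp5 7 were lower and 2 higher, with a median of -0.56. The shares of all genes were 36.6% higher and 36.9% lower at relapse, and 36.5% higher and 34.3% lower with sgIgfbp5. Il1r1, the signalling receptor of interleukin-1, averaged 72.2 CPM in the relapsed and 26.3 CPM in the control tumours, and its log2 fold change was 1.45 ± 0.07 (SE, n = 3 per group). Toll-like receptor genes were split, with Tlr3 at 0.87 ± 0.18 and Tlr2 at -1.21 ± 0.14 at relapse. With sgIgfbp5 the log2 fold change was -2.13 ± 0.14 for Il1rap, the co-receptor of Il1r1, -1.45 ± 0.19 for Tlr4 and -1.38 ± 0.18 for Tnfrsf11a, the receptor RANK.

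The IKK complex and its upstream kinases showed 2 of 10 genes higher and 6 lower at relapse (median log2 fold change -0.14), and 5 higher and 4 lower with sgIgfbp5 (median 0.12). Tab1 and Tab2, adaptors of the kinase TAK1, were lower at relapse by -0.93 ± 0.10 and -1.27 ± 0.04 on the log2 scale, and the IKK-related kinase gene Ikbke was higher by 1.03 ± 0.16. With sgIgfbp5 Map3k14, which encodes NIK, averaged 38.3 CPM against 15.8 CPM with sgScr, a log2 fold change of 1.27 ± 0.10, Tab1 was higher by 1.03 ± 0.10, and Tab3 was lower by -0.94 ± 0.14. Among adaptors and ubiquitin ligases 5 of 14 were higher and 6 lower at relapse (median -0.06), and 6 of 13 were higher and 4 lower with sgIgfbp5 (median 0.13). The TNF receptor adaptor gene Tradd lay at 0.94 ± 0.11 at relapse and at -0.71 ± 0.12 with sgIgfbp5. At relapse the kinase gene Ripk1 was at 0.48 ± 0.06 and Sharpin, of the linear ubiquitin ligase, at -0.77 ± 0.08. With sgIgfbp5 the ligase genes Traf2 and Traf6 were higher by 1.39 ± 0.09 and 0.89 ± 0.10.

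Among the remaining IkB and feedback genes, Zc3h12a, Bcl3 and Ier3 had the largest differences of sufficiently expressed genes in both comparisons. At relapse 4 of 11 were higher and 5 lower (median log2 fold change 0.07), and with sgIgfbp5 2 were higher and 5 lower (median -0.11). Zc3h12a, which encodes the RNase regnase-1 that degrades inflammatory mRNAs, averaged 43.6 CPM in the relapsed and 4.14 CPM in the control tumours, and 3.61 CPM with sgIgfbp5 and 49.6 CPM with sgScr. Its log2 fold changes were 3.39 ± 0.10 and -3.78 ± 0.11 (SE; edgeR adjusted p = 3.48e-21 and adjusted p = 2.62e-10). Bcl3, a nuclear IkB protein, lay at 2.61 ± 0.08 and -1.25 ± 0.08, and Ier3, an early response gene, at 1.66 ± 0.04 and -1.96 ± 0.09.

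Of 14 tested NF-kB target genes outside the 10, 6 were higher and 4 lower at relapse (median 0.26), and 5 were higher and 8 lower with sgIgfbp5 (median -0.64). The counts at relapse lie near the 36.6% higher and 36.9% lower of all genes; with sgIgfbp5 the shares of all genes were 36.5% and 34.3%. Complement C3 averaged 188 CPM in the relapsed and 6.01 CPM in the control tumours, and 8.60 CPM with sgIgfbp5 and 188 CPM with sgScr. The acute phase gene Saa3, of a family of similar genes that can share reads, averaged 128 CPM in the relapsed and 1.14 CPM in the control tumours, and 0.806 CPM with sgIgfbp5 and 228 CPM with sgScr. Other targets had the opposite sign. Csf1, the macrophage growth factor, was lower at relapse by -1.66 ± 0.03, and Gadd45b, a stress response gene, was higher with sgIgfbp5, at 150.1 CPM against 30.5 CPM with sgScr.

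Adhesion receptors beside the 10 and their integrin partners were tested for 6 of 12 genes in each comparison, with 4 higher and 1 lower at relapse (median 1.81) and 4 lower with sgIgfbp5 (median -0.60). Itgb2, the beta2 chain of the ICAM-1 receptors LFA-1 and Mac-1, averaged 15.3 CPM in the relapsed and 0.928 CPM in the control tumours. It averaged 0.938 CPM with sgIgfbp5 and 14.3 CPM with sgScr. The genes of the alpha chains of these receptors, Itgal and Itgam, had between 0 and 2 counts in each group and were tested in neither comparison. The leukocyte marker Ptprc had 0 counts in the relapsed, sgIgfbp5 and sgScr libraries. Itgb7 lay at 1.97 ± 0.10 at relapse and at -3.12 ± 0.12 with sgIgfbp5. Itgb1, a chain of the VCAM-1 receptor, was lower in both, by -1.17 ± 0.03 and -0.60 ± 0.07. Itga4, the alpha4 chain of that receptor, went the other way at relapse, at 1.64 ± 0.31 (edgeR adjusted p = 3.92e-05). With sgIgfbp5 it lay at -0.595 ± 0.24 (edgeR adjusted p = 0.045). Its levels were low, with 179 counts over the relapsed and 57 over the control libraries.

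**Figure D4:**
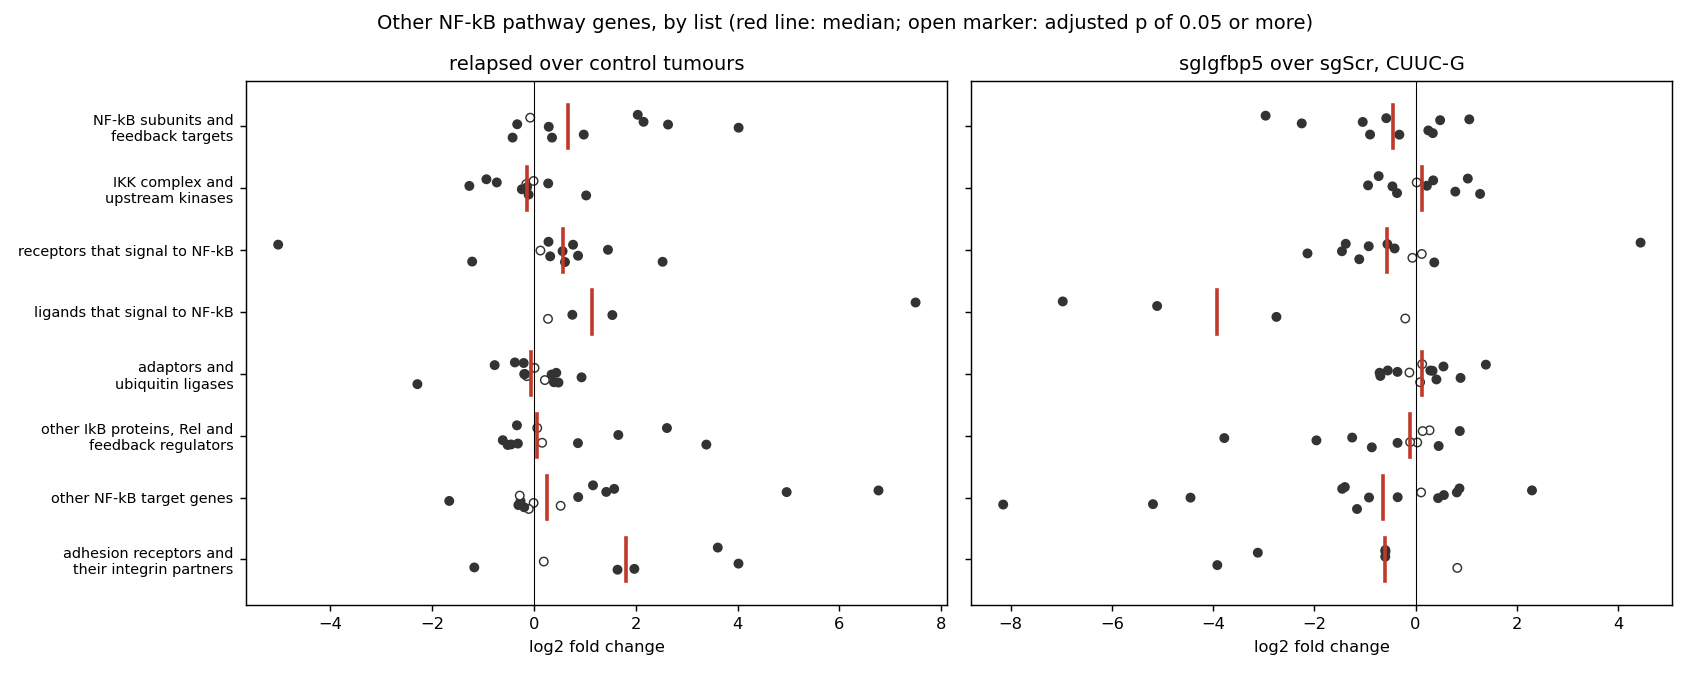
Each point is a tested gene, the x axis its log2 fold change and the red line the median of its list; open markers did not pass, and fitted values of genes with few counts in a group, such as Il1a, are no bounds. The medians of ligands, receptors, targets and adhesion genes lie right of 0 at relapse and left of 0 with sgIgfbp5, while those of the IKK list lie at -0.14 and 0.12.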

How the data were processed

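Estimated counts and TPM were deposited by the authors for the tumours (by transcript, 147828 in all) and for CUUC-G (by gene, in whole numbers). Salmon is the only tool in the submitters' processing notes, which name GRCm38 (mm10) and GRCh38 (hg38) without a role; its version and the annotation release are not given in the sources used here. Per the labels' protocols, libraries were poly(A)-selected and stranded. In 153 CUUC-G values the deposited count was 0 with a TPM above 0, so these counts are rounded estimates. The tumour counts were summed here by gene identifier to 55858 genes and rounded. Gene positions came from GENCODE M21 on GRCm38, matched without the version. The files of the human line were not used here.

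Each mouse comparison was fitted over all genes with its own 6 libraries by edgeR 4.0.16 (R 4.3.3). The fit used the quasi-likelihood test, TMM scaling, filterByExpr and robust dispersion, two-sided, with Benjamini-Hochberg adjustment over all genes tested and a threshold of 0.05. Each standard error is the size of the log2 change over the root of its F statistic. Intervals cover counting error only. Alternatives used DESeq2 1.42.0 and limma 3.58.1. The fitting code was first tested on simulated data. Members and lists were chosen with earlier results of these data known. Named list genes are up to 3 per list and comparison, ranked by size of change among called genes whose mean log2 CPM reached 2. Tnf, Il1b, Tnfsf12, Itga4 and the genes of the closing observations were added after their values were seen.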

Additional observations from a re-analysis of the deposited data

How the results depend on the processing

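Each comparison was refitted under 15 alternatives. Of the 150 values of single genes at relapse, 135 kept direction and side of the threshold, 8 no longer passed, 7 newly passed and 0 changed sign. The 8 were all of Birc3 and the 7 all of Rela. In CUUC-G 146 of 150 were kept and 4 no longer passed, 3 of Birc3 on the TPM scale and 1 of Nfkb1 with a library left out. The count of called genes among the 10 lay between 8 and 10 at relapse and between 9 and 10 in CUUC-G. Over all genes the calls numbered 8645 to 11096 at relapse and 8629 to 11340 in CUUC-G. Leaving out 1 library gave 10152 to 10516 and 9466 to 10391. Igfbp5 kept its direction and call wherever it was tested, with a log2 fold change of -2.31 to -1.77 with sgIgfbp5 when a library was left out; a minimum mean TPM of 1 left it untested.

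Whether the replicate numbers pair the samples is not settled by the correlations, which were small. Same-numbered libraries had correlations of deviations between 0.00615 and 0.0148 at relapse, where each library still correlated best with its own number, and between -0.0817 and 0.0930 in CUUC-G, where sgIgfbp5 replicates 1 and 2 correlated best with their own number and replicate 3 did not. With the replicate number as a block, the calls at relapse numbered 10472, with 9 of the 10 genes, and those in CUUC-G 10037, with all 10. The block changed no call of the 10 genes or of Igfbp5, at 2.54 and -1.93.

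Scaling by library size alone shifted the median of all genes in CUUC-G by 0.11 on the log2 scale, and log2(TPM + 1) shifted that of the tumours by -0.12. On log2(TPM + 1) the median log2 fold change of the genes tested in the tumours was -0.118, and Rela at -0.30 lay below that median. The directions of the 10 genes held under each scaling. Depth limits the genes with few counts, such as Icam1 in the control tumours with 121 counts over 3 libraries and Birc3 with 351 over the sgIgfbp5 and 494 over the sgScr libraries.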

Other observations

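Some genes that act with Relb in the non-canonical branch were read together after their values were seen. Map3k14, which encodes NIK, averaged 15.7 CPM in the relapsed and 26.0 CPM in the control tumours, a log2 fold change of -0.73 ± 0.09 (SE, n = 3 per group; edgeR adjusted p = 3.69e-08), beside the rise of 1.27 ± 0.10 with sgIgfbp5 given above. Traf2, of the complex that degrades NIK, lay at -0.37 ± 0.07 at relapse and at 1.39 ± 0.09 with sgIgfbp5. Cd40, a receptor that activates NIK, was low throughout, with 6 counts over the relapsed and 208 over the control libraries, and 78 counts over the sgIgfbp5 and 3 over the sgScr libraries. The last pair gives a ratio of 26.4 (95% interval 8.70 to 131, exact binomial, counting error only). Traf3, of the same complex, and Ltbr, another receptor of this branch, were higher in both comparisons, at 0.35 ± 0.05 and 0.29 ± 0.05 at relapse and at 0.34 ± 0.09 and 0.37 ± 0.07 with sgIgfbp5. Birc2, a cIAP ligase related to Birc3, was lower at relapse by -0.19 ± 0.08 and did not pass with sgIgfbp5, at -0.12 ± 0.10 (edgeR adjusted p = 0.279). Other listed genes that can act in this branch were called lower with sgIgfbp5. The IKK kinase gene Chuk lay at -0.37 ± 0.11, and the receptor genes Tnfrsf11a and Tnfrsf12a at -1.38 ± 0.18 and -0.56 ± 0.09. The ligand genes Tnfsf11 and Tnfsf13b, with few counts, lay at -5.10 ± 0.32 and -2.75 ± 0.37. The branch thus had no common direction with sgIgfbp5.

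Tnip1 and Nfkbie are further feedback genes, picked after their values were seen. Not all genes of their list differed: Tnip2 was called in neither comparison (edgeR adjusted p = 0.735 at relapse and edgeR adjusted p = 0.859 with sgIgfbp5). Tnip1, which encodes an A20-binding protein, averaged 71.9 CPM in the relapsed and 39.5 CPM in the control tumours, and 40.2 CPM with sgIgfbp5 and 73.1 CPM with sgScr. Its log2 fold changes were 0.86 ± 0.06 and -0.86 ± 0.07 (SE, n = 3 per group). Nfkbie, which encodes IkB-epsilon, did not pass at relapse, at 0.16 ± 0.14 (edgeR adjusted p = 0.298), and averaged 16.1 CPM with sgIgfbp5 against 8.80 CPM with sgScr, a log2 fold change of 0.87 ± 0.12 (edgeR adjusted p = 5.34e-05).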
